A study of Mus musculus with 4 samples.

Results

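Cereblon and the 5 transcription factors of the Ikaros family are described here as transcripts in single CD8+ T cells of mouse BM after SCT. The 6 genes (Crbn, Ikzf1, Ikzf2, Ikzf3, Ikzf4 and Ikzf5) were taken by name from a deposited table of 17561 genes. Each gene was read as a level and as a share of cells, in every cluster and in every library. All 6 genes were present in the table, with 526 UMIs of Ikzf4, 1364 of Ikzf5, 4926 of Crbn, 14201 of Ikzf2, 20002 of Ikzf1 and 26755 of Ikzf3 over all cells.

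Ikaros proteins are zinc finger transcription factors of lymphocytes. They bind DNA through the fingers near their start, pair with each other through the fingers at their end, and recruit NuRD and other co-repressor complexes. Ikaros (Ikzf1) and Aiolos (Ikzf3) restrain effector genes such as Il2 in T cells. Helios (Ikzf2) is best known from regulatory T cells and from innate-like and Ly49+ CD8+ T cells, and Eos (Ikzf4) from regulatory T cells, where it works with Foxp3. Pegasus (Ikzf5) is the most distant relative in the family. Cereblon is the substrate receptor of a CRL4 ubiquitin ligase. Lenalidomide binds cereblon and turns Ikaros and Aiolos into substrates, which are then degraded. That step acts on the protein, and only RNA was measured here.

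The libraries came from mice of C57BL/6 background (C57BL/6J in the methods), either wild type or transgenic for CRBN, transplanted with BM cells and T cells from matched donors. CRBN mice carry a modified murine cereblon that lets the drug engage its targets, and the sources used here do not state which library came from which genotype. The labels and the methods differ in the number of T cells in the graft. The methods also say, for the transplants in general, that recipients had been given Vk12653 myeloma cells, which all 4 groups would then share, while the sample labels do not mention it. The mice were female and 8 to 12 weeks old. The 4 groups received isotype control with vehicle, TIGIT inhibition with vehicle, isotype control with lenalidomide, or TIGIT inhibition with lenalidomide. Antibody (100 μg a dose) was started on the day of transplant, and lenalidomide (50 mg/kg) or vehicle was started on day 14. CD8+ T cells were sorted on day 28 from BM pooled from 5 mice per group. Each group was thus 1 library of pooled mice, with no replicate. The deposited tables number the libraries 1 to 4, and no label ties a number to a treatment, so libraries are given by number, and treatments are not compared.

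The table held 11754 cells, between 1725 and 4237 in a library, with 15556967 to 38440687 UMIs (unique molecular identifiers, each standing for 1 captured RNA molecule). The authors' 8 clusters were used: naive (Tn), central memory (Tcm), 5 effector or exhausted clusters (transitory Teff, GzmB+ Teff, TIM-3+ Tex, GzmA+ Tex and TIGIT+ Teff) and cycling cells. The median cell held between 5545 UMIs in transitory Teff and 13959.5 in cycling cells. Cd3e was at 798 to 2111 CPM in every cluster, with Cd4 at 1.53 CPM or less. The methods give expression of Cd8a as a condition for keeping a cell, yet 79.8% of Tcm and 88.1% of Tn cells held a Cd8a UMI, against 92.5% to 98.2% in the other clusters. Cd8b1 was at 217 CPM in Tcm against 934 to 1327 CPM in the other clusters. Tcm is the authors' name. Il7r (25.5 against 395 CPM) and Ccr7 (26.3 against 226 CPM), which memory and naive cells use, were lower in it than in Tn, and the innate-like Fcer1g (263 against 11.3 CPM) and Tyrobp (160.0 against 9.08 CPM) were higher. Transcripts of macrophages (11 genes summed) were at 1951 CPM in GzmA+ Tex and at 112 CPM or less elsewhere. In all, 56 barcode sequences occurred in more than 1 library.

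Levels are UMIs of a gene per 1000000 UMIs of the same cells (CPM), with an exact Poisson 95% interval in brackets. Shares of cells with at least 1 UMI are given after each cell was thinned to 2500 UMIs, with a Clopper-Pearson interval. With no replicates, these intervals cover counting error only, and no test was made. The clusters were drawn from the same counts, so a difference between clusters is a description. UMI counts are not scaled by gene length, so the levels of different genes are not compared with each other.

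All 6 genes are protein coding. In the GRCm38 assembly (GENCODE M21), Crbn lies on the minus strand of chromosome 6 (106780201 to 106800077). Ikzf1 lies on the plus strand of chromosome 11 (11685003 to 11772926) and Ikzf3 on the minus strand of the same chromosome (98464902 to 98546031). Ikzf2 spans 156032 bases on the minus strand of chromosome 1 (69531214 to 69687245), the longest of the 6. Ikzf4 is on chromosome 10 (128630843 to 128645991) and Ikzf5 on chromosome 7 (131388652 to 131410521), both on the minus strand. No other gene of the table overlaps any of the 6 on the same strand.

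Crbn, the receptor through which the drug acts, was detected in every cluster of every library. Its level was 31.6 CPM (28.4 to 35.2) in Tn, with 33.2, 29.6, 32.4 and 31.4 in libraries 1 to 4. In Tcm it was 42.1 CPM (39.6 to 44.6), with 45.5, 32.6, 40.5 and 42.7 in the libraries. TIGIT+ Teff had the highest level, 72.5 CPM (66.0 to 79.3), but the libraries there lay between 50.5 in library 4 and 105 in library 2. The clusters between these followed in the order TIM-3+ Tex (57.3 CPM), transitory Teff (52.1), GzmB+ Teff (51.1), GzmA+ Tex (45.1) and cycling cells (42.8). From TIM-3+ Tex down to Tcm, the interval of each overlapped that of its neighbour. Tn was the lowest cluster, below Tcm in each of the 4 libraries. After thinning, a Crbn UMI was found in 7.45% (6.10% to 8.99%) of Tn cells and 18.6% (16.0% to 21.5%) of TIGIT+ Teff cells. Transcripts of the receptor were thus counted in all cell states.

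**Figure D1:**
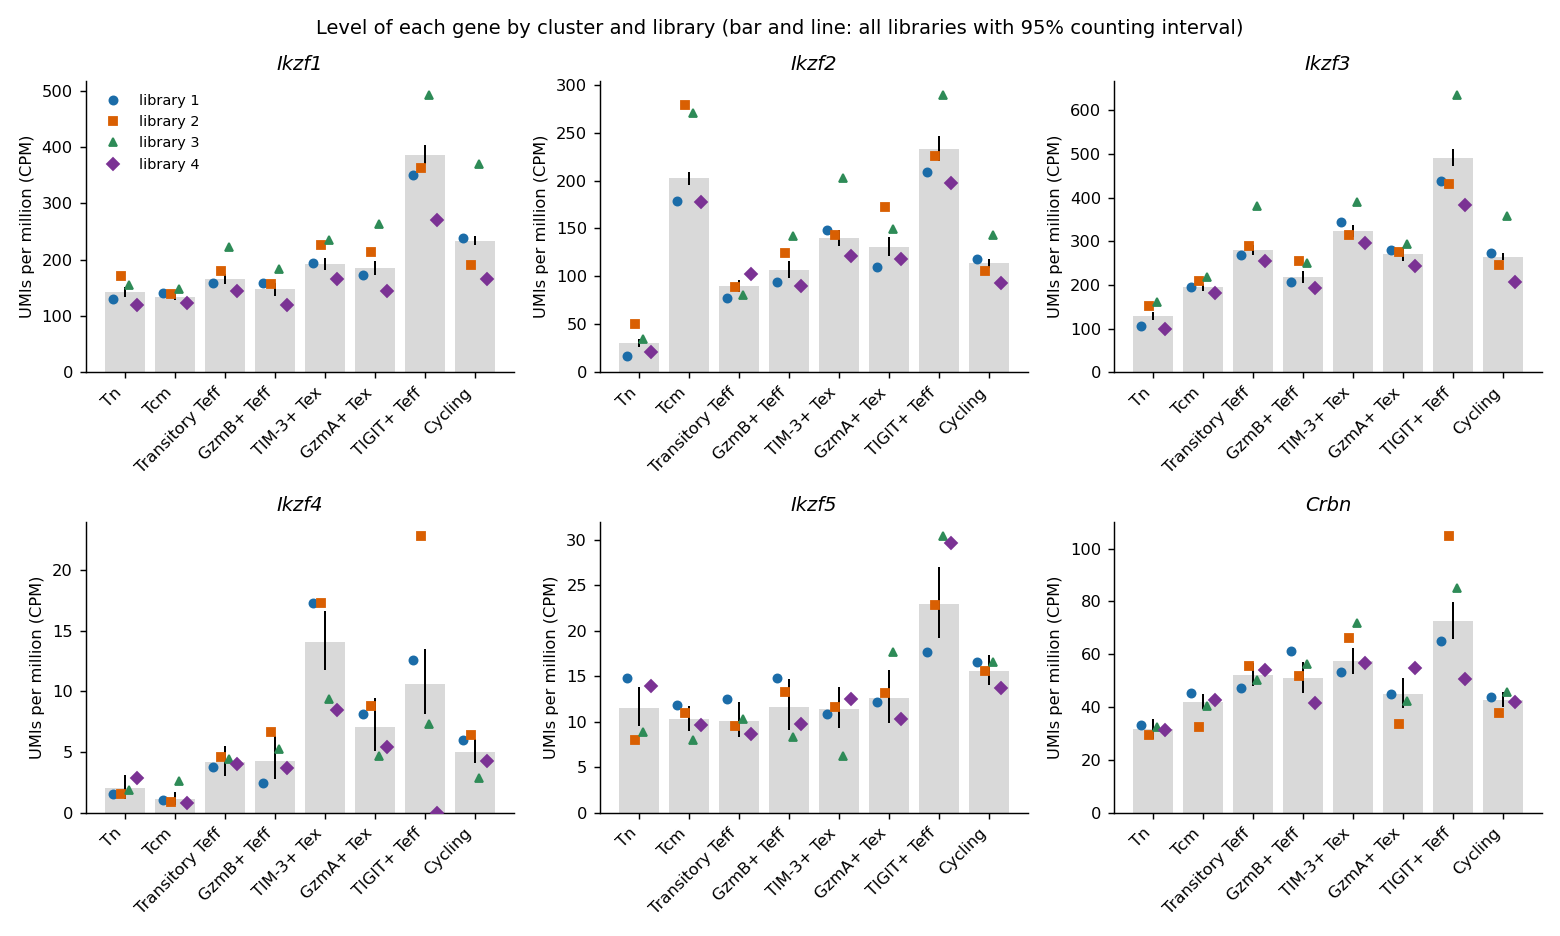
Level of each gene in CPM by cluster. Bars and black lines are all libraries together with the 95% counting interval, and points are the 4 libraries. Ikzf2 was lowest in Tn and highest in TIGIT+ Teff, followed by Tcm. Ikzf1, Ikzf3, Ikzf5 and Crbn were also highest in TIGIT+ Teff, and Ikzf4 in TIM-3+ Tex.

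Ikaros (Ikzf1) was at nearly the same level in Tn and Tcm. Tn had 143 CPM (136 to 150.1), with 131, 171, 155 and 119.8 in libraries 1 to 4, and Tcm had 134 CPM (129.5 to 139), with 141, 139, 148 and 123. The intervals of both overlapped, and Tn was the higher of them in 2 of 4 libraries. GzmB+ Teff (147 CPM) also overlapped Tn. Higher levels were found in transitory Teff (165 CPM), GzmA+ Tex (184), TIM-3+ Tex (192) and cycling cells (234). TIGIT+ Teff stood above every other cluster with 386 CPM (371 to 401), and its libraries had 349.6, 363, 493 and 270.1. It was above cycling cells, the next in order, in each of the 4 libraries. After thinning, 65.7% of TIGIT+ Teff cells held an Ikzf1 UMI, against 29.2% in Tn and 27.4% in Tcm.

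Aiolos (Ikzf3), the other main substrate of lenalidomide in T cells, was lowest in Tn, higher in Tcm and higher again in effector and exhausted clusters. Tn had 128 CPM (122 to 135), with 106, 152, 162 and 99.6 in libraries 1 to 4. Tcm had 194 CPM (189 to 199.7), with 196, 208, 218 and 181, and was above Tn in each library. GzmB+ Teff (218 CPM), cycling cells (264), GzmA+ Tex (270.4) and transitory Teff (280.0) came next, and the intervals of the last 3 overlapped between neighbours. TIM-3+ Tex had 324 CPM (313 to 335), with 343, 314, 391 and 296 in the libraries. TIGIT+ Teff was highest, at 491 CPM (474 to 509), with 438, 431, 635 and 383. The 2 top clusters were in this order in each of the 4 libraries. Ikzf3 UMIs were found in 26.6% of thinned Tn cells, 36.5% in Tcm, 53.9% in TIM-3+ Tex cells and 71.9% of TIGIT+ Teff cells.

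Helios (Ikzf2) had another order, with the Tcm cluster near the top. In Tn its level was 30.4 CPM (27.2 to 33.8), with 16.8, 50.3, 35.0 and 21.6 in libraries 1 to 4. In Tcm it was 202 CPM (197 to 208), with 178, 279, 270.0 and 178. The lowest Tcm library was above the highest Tn library, so the clusters did not overlap. TIGIT+ Teff had 233 CPM (221 to 245) and its libraries 209, 226, 289 and 197, which overlapped those of Tcm. Libraries 1, 3 and 4 had more in TIGIT+ Teff, and library 2 more in Tcm. The remaining order was TIM-3+ Tex (140.2 CPM), GzmA+ Tex (131), cycling cells (113), GzmB+ Teff (107) and transitory Teff (89.7). In thinned cells, an Ikzf2 UMI was present in 35.3% (33.7% to 36.9%) of Tcm, 36.4% (33.1% to 39.8%) of TIGIT+ Teff, 13.4% of transitory Teff and 6.18% (4.96% to 7.61%) of Tn. Without thinning these shares were 64.2%, 56.9%, 26.2% and 11.8%. No cell type that should lack Helios was in the table, so the level of free RNA could not be read, and Tn is the lowest cluster available. Foxp3, the factor that defines regulatory T cells, was at 1.99 CPM or less in every cluster.

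Eos (Ikzf4) and Pegasus (Ikzf5) were sparse. TIM-3+ Tex had the highest Ikzf4 level, 14.1 CPM (11.9 to 16.5), with 17.3, 17.2, 9.37 and 8.44 in libraries 1 to 4. TIGIT+ Teff had 10.6 CPM (8.23 to 13.4), with 12.6, 22.8, 7.35 and 0. The 0 in library 4 came from 573858 UMIs in 59 cells, which allows a level of up to 5.23 CPM. In Tn and Tcm the levels were 2.02 CPM (1.26 to 3.06) and 1.13 CPM (0.758 to 1.63), from 22 and 29 UMIs. Each Ikzf4 value of TIM-3+ Tex was above each value of Tn, Tcm, transitory Teff, GzmB+ Teff and cycling cells. The value of library 3 (9.37 CPM) came from only 320008 UMIs in 31 cells, so on its own it does not separate TIM-3+ Tex. Ikzf5 lay between 10.2 CPM in transitory Teff and 15.6 in cycling cells in 7 of the 8 clusters, whose order was not separated by the intervals of neighbours. TIGIT+ Teff stood apart from its neighbour, at 22.9 CPM (19.4 to 26.9), with 17.7, 22.8, 30.5 and 29.6 in the libraries. Clusters that were not neighbours could still differ. Cycling cells had log2 ratios of CPM of 0.44 (0.14 to 0.73) to Tn and 0.27 (0.08 to 0.45) to the 5 Teff and Tex clusters. Both were positive in 3 of 4 libraries.

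To set the members beside other genes, the log2 ratio of CPM was taken between groups of clusters, and a gene was counted as higher or lower where it differed at least 2-fold over all cells and had that direction in all 4 libraries. Genes needed 20 CPM on either side, which Ikzf1, Ikzf2, Ikzf3 and Crbn reached throughout, Ikzf5 in TIGIT+ Teff alone and Ikzf4 in no comparison. Between the 5 Teff and Tex clusters and Tn, Ikzf2 and Ikzf3 were counted as higher, against 8.56% of 5842 genes, and no member as lower, against 1.11%. The ratio of Ikzf2 was 2.12 (1.96 to 2.29), with 2.99, 1.36, 2.39 and 2.37 in libraries 1 to 4, and that of Ikzf3 was 1.28 (1.20 to 1.36), with 1.61, 0.95, 1.43 and 1.37. With median-of-ratios size factors the ratio of Ikzf3 was 0.99, just under the fold. Crbn was higher in each library but below the fold, at 0.80 (0.64 to 0.97). Ikzf1 had 0.52 (0.44 to 0.60), with 0.70, 0.24, 1.04 and 0.33 in the libraries, beside a median of 0.30 over all genes. Without TIGIT+ Teff, Ikzf1 had 0.28. The median over all genes was not taken without that cluster, so it cannot be set beside this value. The sparse Ikzf4 had 1.98 (1.36 to 2.67) and Ikzf5 0.17 (-0.12 to 0.46), the last with opposite signs between libraries.

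Tcm against Tn separated Helios from the rest of the family. Ikzf2 had a log2 ratio of 2.74 (2.58 to 2.90), a 6.66-fold difference, with 3.41, 2.47, 2.95 and 3.05 in libraries 1 to 4. It was the only member counted as higher, against 3.17% of 5391 genes, and 99.4% of these genes had a smaller ratio. No member was counted as lower, against 0.816% of genes. Ikzf3 had 0.60 (0.51 to 0.69) and Crbn 0.41 (0.23 to 0.59), both positive in each library. Ikzf1 had -0.09 (-0.18 to -0.00), with 0.11, -0.30, -0.07 and 0.03 in the libraries, around 0. The median over all genes was 0.13. Cycling cells against the 5 Teff and Tex clusters gave no member past the fold in either direction, against 6.68% of 6216 genes higher and 0.837% lower. There Ikzf1 had 0.19 (0.14 to 0.24), Ikzf2 -0.22 (-0.28 to -0.16), Ikzf3 -0.24 (-0.28 to -0.19) and Crbn -0.37 (-0.47 to -0.26). The last 3 were lower in each of the 4 libraries, but with equal weight for each cell the ratio of Ikzf2 was near 0 (-0.000707 after thinning and -0.014 as a mean over cells).

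**Figure D2:**
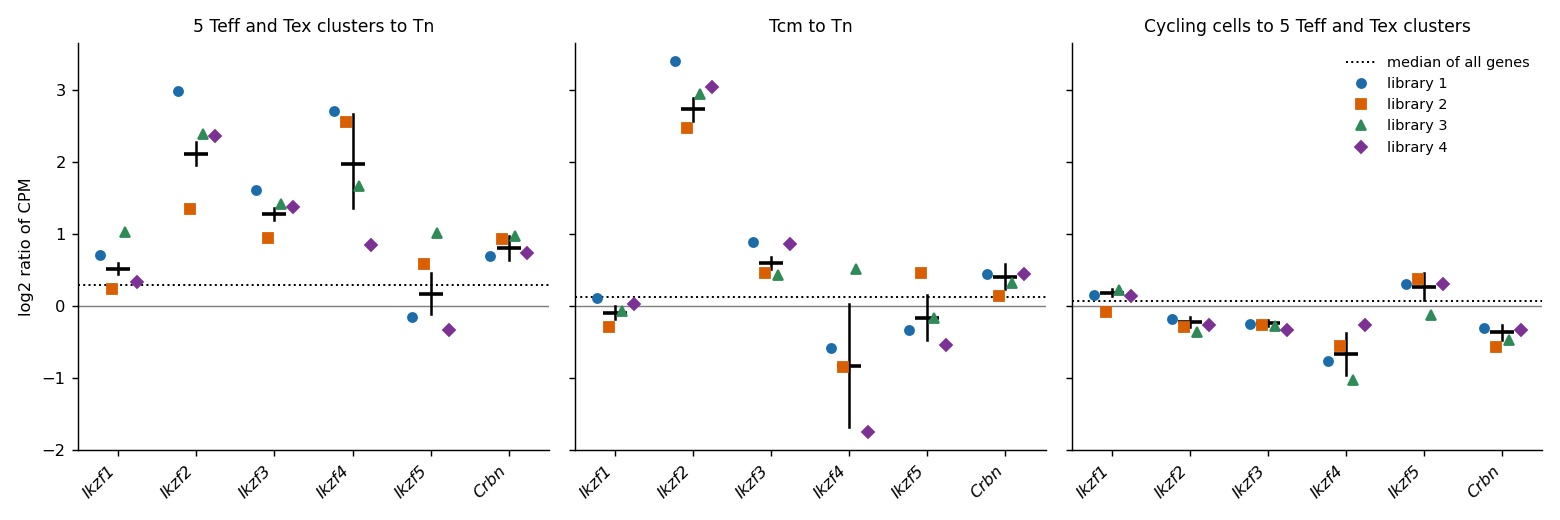
Log2 ratio of CPM of the 6 genes in 3 comparisons of clusters. Black dashes and lines are all libraries with the 95% counting interval, coloured points are libraries 1 to 4, and the dotted line is the median of all genes; Ikzf2 stood 2.74 above Tn in Tcm, where Ikzf1 was at -0.09.

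TIGIT+ Teff, where 5 of the 6 genes had their highest level, also differed from the other clusters in its nuclear transcripts. Against the other 4 Teff and Tex clusters, Ikzf1, Ikzf2 and Ikzf5 were counted as higher, beside 15.0% of 6529 genes. Their log2 ratios were 1.16 (1.09 to 1.22), 1.03 (0.94 to 1.11) and 1.03 (0.75 to 1.31). Ikzf3 had 0.81 (0.76 to 0.87) and Crbn 0.48 (0.33 to 0.62), the last negative in library 4. Genes in the same decile of gene length had median ratios of 0.92 for Ikzf1 and Ikzf3, 0.93 for Ikzf2 and 0.23 for Ikzf5 and Crbn. The intervals of Ikzf1, Ikzf2, Ikzf5 and Crbn lay above these medians, and that of Ikzf3 below. The median over all genes was 0.333, inside the interval of Crbn (0.326 to 0.623). Of all genes, 57.7% had a smaller ratio than Crbn. The 4 mainly nuclear transcripts (Malat1, Xist, Neat1 and Kmt2a) summed to 7622 CPM in TIGIT+ Teff, with 5791 to 9143 in the libraries, and to 2706 to 3514 CPM in the other clusters. The part of nuclear RNA in the levels of TIGIT+ Teff was not tested. The cluster held 50 and 59 cells in libraries 2 and 4.

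The libraries themselves differed in Ikaros and Aiolos. Library 4 had the lowest level of Ikzf1 in all 8 clusters and of Ikzf3 in all 8 clusters. Library 3 had the highest level of each of them in 7 of the 8. In cycling cells, for example, Ikzf1 was at 238, 191, 371 and 166 CPM and Ikzf3 at 273, 245, 358 and 206 CPM in libraries 1 to 4. The same order was met by 4 of 7074 genes, or 0.0565%: Ikzf1, Ikzf3, the interferon-induced GTPase gene Tgtp2 and the surface antigen gene Ly6a. This order was chosen after the values of the members were seen, and 0.269% of genes had any 1 library highest in at least 7 clusters and any other lowest in all 8. After thinning, which gives each cell equal weight, library 3 was highest in 5 clusters for either gene, and library 4 was lowest in 8 clusters for Ikzf1 and in 5 for Ikzf3. The nuclear transcripts were also highest in library 3 in 7 clusters, and lowest in library 4 in 3 clusters, and their part was not tested. Crbn had no such order, with library 4 lowest in 2 clusters and library 3 highest in 2. Each library is 1 treatment, 1 pool of mice and 1 capture, which cannot be told apart.

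Past a fold of 2 between the highest and lowest library, with intervals apart, were Ikzf2 in Tn, Ikzf1 in cycling cells and Crbn in TIGIT+ Teff, or 3 of the 33 pairs of a member and a cluster that reached 20 CPM. Over all genes this was so in 4.58% of 44306 pairs. The folds were 3.0 for Ikzf2, between library 2 and library 1, then 2.23 for Ikzf1 and 2.08 for Crbn. In Tn, libraries 2 and 3 were above libraries 1 and 4 for Ikzf1, Ikzf2 and Ikzf3 alike, while Crbn stayed between 29.6 and 33.2 CPM. In Tcm the same split was found for Ikzf2 (178, 279, 270.0 and 178 CPM) and Ikzf3 (196, 208, 218 and 181 CPM).

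Helios marks Ly49+ CD8+ T cells in mice, and Ly49 receptors are inhibitory or activating receptors for MHC class I that NK cells also carry. Cells were therefore split by a UMI of any of 9 Ly49 (Klra) genes. Of the Tcm cells, 68.5% held one after thinning (2341 of 3418), against 11.8% in Tn and 7.46% in transitory Teff. Within Tcm, Ikzf2 was at 216 CPM in cells with a Ly49 UMI and at 162 CPM in cells without. The log2 ratio was 0.41 (0.25 to 0.57), and 0.43, 0.57, 0.25 and 0.37 in libraries 1 to 4. Without thinning it was 0.62 (0.48 to 0.76), where cells with a Ly49 UMI also had more UMIs (median 7037 against 6491). Helios was higher in the Ly49 cells of all 8 clusters, which held for 1.38% of 5724 genes. In TIGIT+ Teff the levels were 495 and 225 CPM, a log2 ratio of 1.14 (0.89 to 1.38), and in GzmB+ Teff they were 167 and 84.7 CPM, 0.98 (0.53 to 1.42). The libraries of TIGIT+ Teff had 0.63, 0.22, 1.99 and 1.06, library 3 being the highest. After thinning the log2 ratio was smallest in Tcm. Without thinning, TIGIT+ Teff had 0.82 and GzmB+ Teff 1.48. In GzmA+ Tex, where 91.1% of cells held transcripts of other cell types, it was 0.96 over all cells and 2.07 without those cells. The second value left out 520 of the 571 cells and so rests on few cells. After thinning the interval reached below 0 only in Tn, with 0.67 (-0.08 to 1.36). In the libraries taken singly, Ikzf2 was higher in the Ly49 cells in 30 of 32 pairs, the exceptions being Tn and GzmB+ Teff of library 3. As many pairs were reached by 0.0874% of genes, 5 with Ikzf2 among them. Ikzf1, Ikzf3 and Crbn had log2 ratios of -0.05, 0.04 and -0.15 in Tcm after thinning, and -0.14, -0.50 and -0.20 in TIGIT+ Teff, so they were level or lower in the Ly49 cells there. Klra genes are near-identical copies whose reads can be split between them, so they were used as a group.

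**Figure D3:**
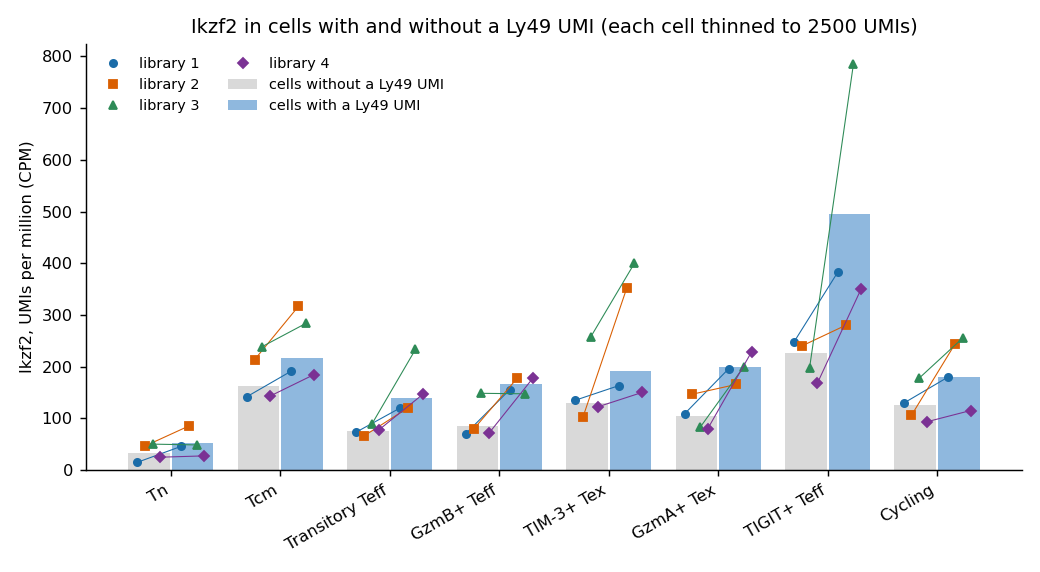
Ikzf2 level in CPM in cells with (blue bars) and without (grey bars) a Ly49 UMI, by cluster, after thinning to 2500 UMIs a cell. Joined points are the 4 libraries, and the line rises in 30 of 32 of them, most in TIGIT+ Teff (495 against 225 CPM).

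The Tcm cluster was also split the other way, by an Ikzf2 UMI in thinned cells, a comparison added after the data were seen. Among 2682 genes of at least 50 CPM, 11.2% were higher in each of the 4 libraries in the 1206 cells with an Ikzf2 UMI than in the 2212 cells without, and 7.68% were lower in each. Of the 19 Ly49 and innate-like genes, 13 reached 50 CPM, of which 7 were higher in each library and 0 lower in each, with a median log2 ratio of 0.23. Fcer1g, an ITAM adaptor of NK cells, was at 350.2 against 247 CPM, log2 ratio 0.50 (0.39 to 0.62). Tyrobp, a partner adaptor, was at 195 against 147 CPM, log2 ratio 0.40 (0.25 to 0.56). The activating receptor gene Klrc2 had 121 against 92.0 CPM, log2 ratio 0.40 (0.20 to 0.60). These 3 were higher in each library, as were Klra1, Klra6, Klra7 and Klrk1, with log2 ratios of 0.27, 0.25, 0.22 and 0.05. Klra3 (0.05), Klrd1 (0.06) and Il2rb (0.07) were nearly level. Below 50 CPM, genes of the list went both ways. Klra9 was higher in each library, at 43.4 against 22.6 CPM, log2 ratio 0.94 (0.58 to 1.31). Klra5 (-1.05) and Klra8 (-1.09) were lower in each library. On the lower side was Cd8b1, the beta chain of the CD8 coreceptor, with 124 against 231 CPM, log2 ratio -0.90 (-1.07 to -0.73), lower in each library and the lowest ratio of the 2682 genes. The granule protease gene Gzmm had 91.2 against 152 CPM, log2 ratio -0.74 (-0.94 to -0.54). Of the members, Ikzf1 (-0.01) was nearly level. Ikzf3 was slightly higher, log2 ratio 0.16 (0.01 to 0.31), in 3 of the 4 libraries. Crbn, below 50 CPM, had -0.13 (-0.45 to 0.18).

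In thinned cells, Ikzf1, Ikzf2 and Ikzf3 all had a UMI in 18.3% of TIGIT+ Teff cells, where the product of the single shares is 17.2%. In Tcm the share was 3.83%, with a product of 3.53%, and in Tn 0.447%, with a product of 0.481%. Joint detection in these clusters was thus close to what the single shares give. In cycling cells it was 7.05%, with a product of 4.99%. The libraries and the states within a cluster were pooled here, and at this depth a cell with no UMI may still hold the transcript.

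Clones were taken from the TCR libraries. TCR genes are also in the count table, and whether they entered the clustering is not given in the sources used here. Within each cluster, cells of expanded clones (2 or more cells of a library with the same pair of chains) were compared with cells of clones seen once. Only cells with both chains called were used, so the levels need not match those of the whole cluster. Aiolos and Helios went opposite ways. Ikzf3 was higher in expanded clones in all 8 clusters, which held for 4.92% of 7909 genes, and its interval lay above 0 in 6. With expanded clones defined as more than 5 cells, it was higher in 7 clusters, and the exception was Tcm, with 3 such cells. In GzmB+ Teff it was at 299.6 against 163 CPM, log2 ratio 0.88 (0.64 to 1.11). In TIGIT+ Teff it was at 686 against 474 CPM, log2 ratio 0.53 (0.32 to 0.74), and in cycling cells at 283 against 194 CPM, log2 ratio 0.54 (0.41 to 0.67). All of these were positive in each of the 4 libraries, where the log2 ratios lay between 0.67 and 1.05 in GzmB+ Teff.

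Ikzf2 was lower in expanded clones in 7 of the 8 clusters, which held in at least 7 clusters for 8.59% of genes. In TIGIT+ Teff it was at 245 against 424 CPM, log2 ratio -0.79 (-1.06 to -0.53), from 205 cells against 102, lower in libraries 1, 3 and 4 and higher in library 2. The whole TIGIT+ Teff cluster held 816 cells at 233 CPM, below both of these levels. In GzmA+ Tex, Ikzf2 was at 92.4 against 167 CPM, log2 ratio -0.85 (-1.28 to -0.44), and lower in each of the 4 libraries. In Tcm, with 207 cells of expanded clones and 2159 of single clones, it was at 168 against 210.0 CPM, log2 ratio -0.32 (-0.51 to -0.13), positive in libraries 1 and 2 and negative in libraries 3 and 4. Ikzf1 was higher in expanded clones in 7 clusters, with an interval above 0 in 3, and Crbn in all 8, with an interval above 0 in 4. For Crbn this fell to 7 clusters with clones defined by TRB alone (interval above 0 in 2) or as more than 5 cells (in 3), the exception being Tcm in both. The median log2 ratio over all genes was between 0.01 and 0.17 in the 8 clusters. Cells of expanded and single clones also differed in UMIs, with medians of 3694 and 3933.5 in TIGIT+ Teff and 5005 and 8036 in GzmB+ Teff. The median over all TIGIT+ Teff cells was 6047. The part of depth was not tested.

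**Figure D4:**
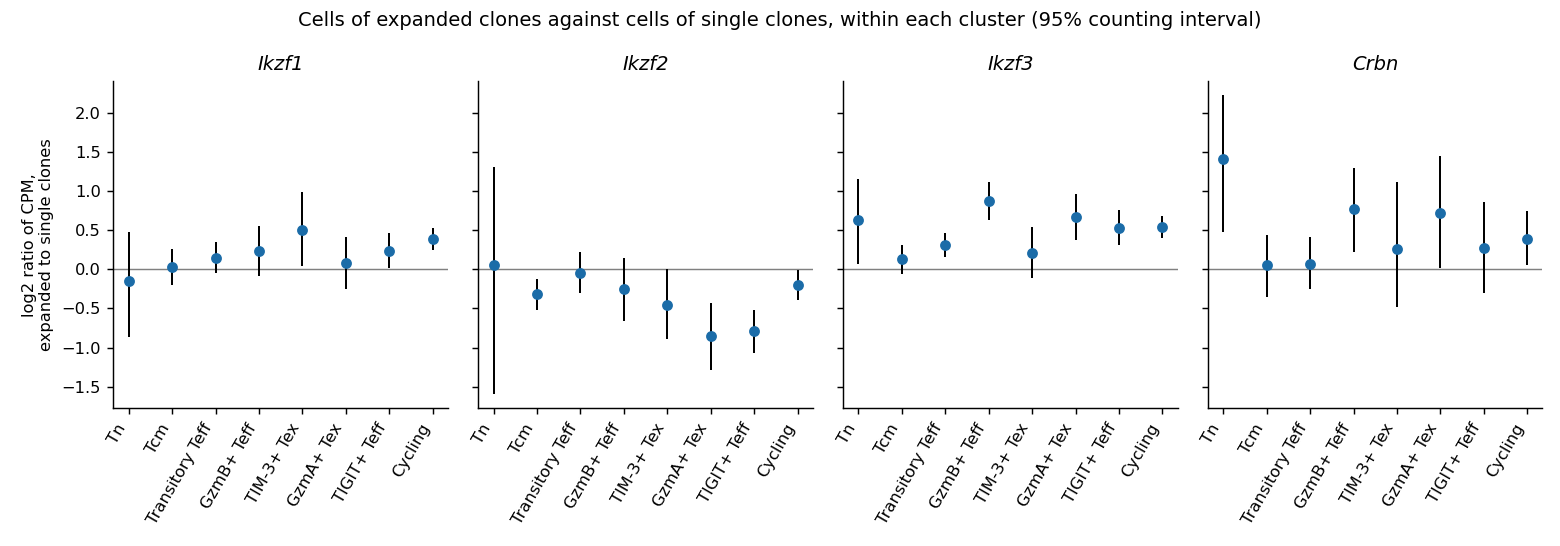
Log2 ratio of CPM of cells from expanded to cells from single clones within each of the 8 clusters, for 4 of the genes. Points are all libraries and lines the 95% counting interval; Ikzf3 lay above 0 in every cluster and Ikzf2 below 0 in 7.

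Helios also varied from clone to clone. In the 31 clones with 20 or more cells in a library (1710 cells), Ikzf2 ranged from 0 to 684 CPM, with a median of 95.2. Since clones differ in their clusters, the UMIs observed in a clone were divided by the UMIs its cells would hold at the level of their own cluster and library, a comparison added after the data were seen. The clones are part of those clusters. For Ikzf2 the quotient ranged from 0 to 4.65, and its interval was off 1 in 16 of 31 clones, 5 above and 11 below. For Ikzf1 it ranged from 0.590 to 1.58 (11 clones off 1), for Ikzf3 from 0.806 to 1.42 (10 clones) and for Crbn from 0.480 to 2.59 (5 clones). For these 3 genes nearly all such clones were above 1. Ikzf1 had 10 above and 1 below, Ikzf3 10 and 0, and Crbn 5 and 0. Over all genes of 20 CPM or more other than TCR genes, 13.4% of pairs of a gene and a clone were off 1. This share was not matched for level. Intervals are narrower for genes with more UMIs, so it is no measure of how unusual the counts of Ikzf1, Ikzf2 and Ikzf3 are.

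The highest clone, of 22 cells in library 3 and 63.6% in the cycling cluster, had an Ikzf2 UMI in 22 of 22 cells and 139 UMIs in all, where 29.9 would match its clusters. A clone of 32 cells in library 2, with 75.0% in transitory Teff, had none, where 12.4 UMIs would match. Its 0 of 32 cells allows up to 9.38% of cells with a UMI, which is no limit on cells that express the gene. Further clones of library 1 lay on both sides, with 285 CPM in a clone of 68 cells and 18.1 CPM in a clone of 90 cells. At most 16 UMIs came from 1 cell of the highest clone. Cells of a clone share their source, so a clone is a single unit, and in pooled mice the number of animals behind these clones is not known. Without the cycling cells, 17 of the 31 clones were off 1 for Ikzf2, 6 for Ikzf1 and 13 for Ikzf3. Without cells of mixed content these counts were 18, 7 and 8, so that of Ikzf1 fell from 11 under both.

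**Figure D5:**
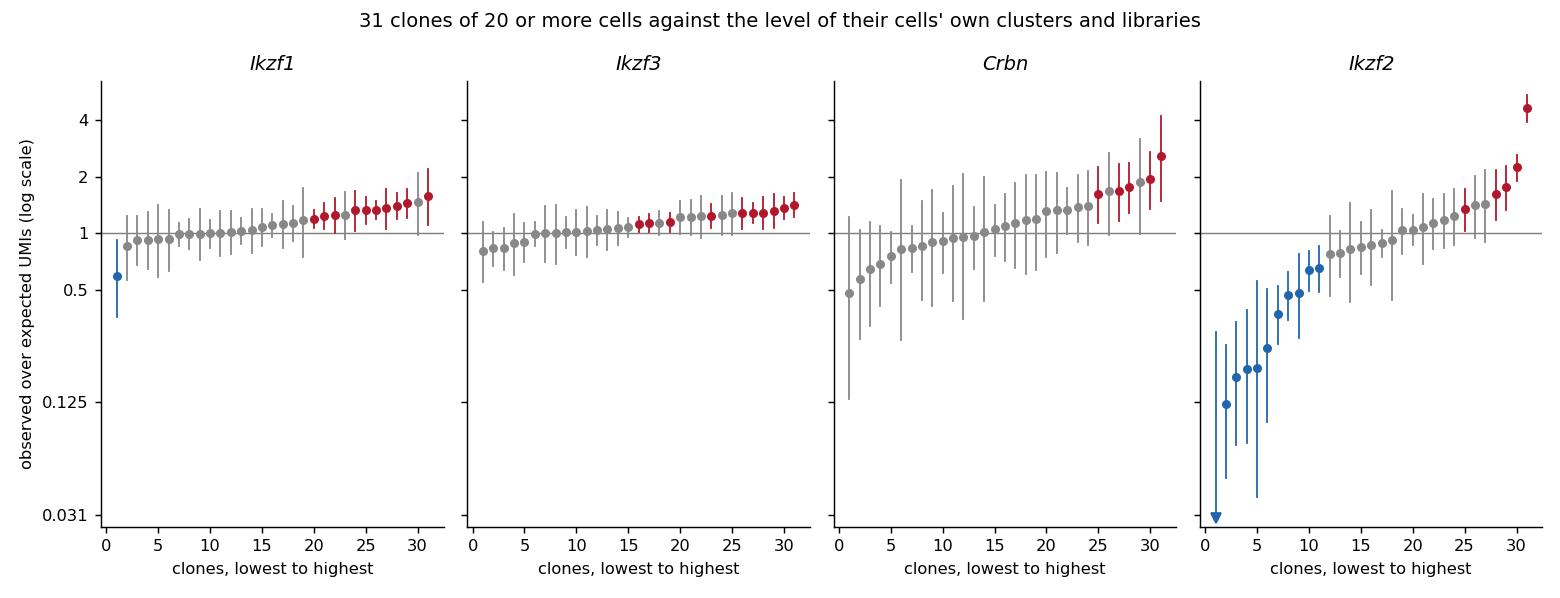
Observed over expected UMIs (log scale) of 4 genes in each of 31 clones, in order of the quotient. Lines are 95% Poisson intervals, red and blue mark clones whose interval lies above or below 1, and the arrow marks the clone with no Ikzf2 UMI; Ikzf2 spans 0 to 4.65 and Ikzf3 0.806 to 1.42.

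Genes of the ligase, of the other drug substrates and of the co-repressors were counted in the same way, beside 8.56% of all genes higher and 1.11% lower in Teff and Tex clusters than in Tn. The list for the CRL4 ligase held 19 genes, of its subunits and regulators and also Glul, the glutamine synthetase gene. Of these 19 genes, 18 reached 20 CPM between Teff and Tex clusters and Tn, and none was counted as higher or lower. Their median log2 ratio was 0.17, beside 0.30 for all genes. Ube2d3, a ubiquitin-conjugating enzyme, was at 384 CPM in Tn and 403 CPM in Teff and Tex (log2 ratio 0.07). Rbx1, the RING subunit, was at 253 CPM in Tn and 304 CPM in Teff and Tex (log2 ratio 0.26), and Nedd8, which activates the ligase, at 222 CPM in Tn and 252 CPM in Teff and Tex (log2 ratio 0.18). Of 15 other reported neosubstrates of such drugs, 14 were in the table, 7 reached 20 CPM and 1 was counted as higher. This was Rnf166, a ubiquitin ligase gene, at 79.3 CPM in Tn and 161 CPM in Teff and Tex (log2 ratio 1.03). Csnk1a1, a kinase degraded with lenalidomide in human cells, was at 156 CPM in Tn and 199.7 CPM in Teff and Tex (log2 ratio 0.35), and Gspt1, a translation termination factor, at 80.2 CPM in Tn and 93.5 CPM in Teff and Tex (log2 ratio 0.22). Of 17 NuRD and co-repressor genes, 16 reached 20 CPM and none was counted, with a median of 0.26. Chd4, the remodelling ATPase of NuRD, was at 127 CPM in Tn and 165 CPM in Teff and Tex (log2 ratio 0.39), its relative Chd3 at 199 CPM in Tn and 148 CPM in Teff and Tex (log2 ratio -0.43) and the methyl-DNA binding Mbd2 at 175 CPM in Tn and 215 CPM in Teff and Tex (log2 ratio 0.30). In Tcm against Tn none of these 3 lists had a gene counted as higher or lower, and their medians were 0.07, 0.19 and 0.11, beside 0.13 for all genes.

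Of 22 genes reported under Ikaros or Aiolos control, 14 reached 20 CPM between Teff and Tex clusters and Tn, with 5 higher and 4 lower, beside 8.56% and 1.11% of all genes. The higher ones were Ifng, Prdm1, Cd8a, Notch1 and Gfi1, and the lower ones included Il7r, Tcf7 and Lef1. Ifng, the gene of interferon gamma, was at 16.8 CPM in Tn and 163 CPM in Teff and Tex (log2 ratio 3.28). Prdm1, an effector transcription factor, was at 2.48 CPM in Tn and 42.2 CPM in Teff and Tex (log2 ratio 4.09), and the IL-7 receptor gene Il7r at 395 CPM in Tn and 69.4 CPM in Teff and Tex (log2 ratio -2.51). The cytokine gene Il2 did not reach 20 CPM. Several of these genes mark the clusters themselves. Of 19 Ly49 and innate-like genes, 12 of the 14 that reached 20 CPM were higher in Tcm than in Tn, beside 3.17% of all genes, with a median of 2.93. Klra7 was at 24.5 CPM in Tn and 317 CPM in Tcm (log2 ratio 3.69), Fcer1g at 11.3 CPM in Tn and 263 CPM in Tcm (log2 ratio 4.54) and Klrb1c (NK1.1) at 10.5 CPM in Tn and 242 CPM in Tcm (log2 ratio 4.53). The defining NK gene Ncr1 was at 4.92 CPM in Tcm. Of 6 genes of regulatory T cells, Ctla4 and Nrp1 were higher in Teff and Tex clusters than in Tn, and none was counted in Tcm, where Il2ra and Foxp3 were below 20 CPM.

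The profile of each member over the 32 values of cluster and library was compared with those of 7074 genes, as Pearson's r of log2(CPM + 10). The points share libraries and a clustering, so r is a description. The genes most like Ikzf2 were Sytl3 (0.87), Cd160 (0.86), Fgl2 (0.83), Padi2 (0.82) and Dusp6 (0.82), and Cd160 led without TIGIT+ Teff (0.88). For Ikzf1 they were Sptan1 (0.94), Acsl4, Usp34, Ptpra and Atrx, and for Ikzf3 Elk3 (0.94), Prex1, Nsmaf, Mdfic and Msi2. Without TIGIT+ Teff, Sptan1 still led for Ikzf1 (0.89), while Id2 led for Ikzf3 (0.93), with Elk3 and Prex1 still among the first 5. Crbn was most like Ttc14 (0.85), Nxpe3, Stat3, Tbc1d14 and Cd164, none of which was among its first 5 without TIGIT+ Teff, where Jak3 led (0.85). The sparse genes had Ahr (0.86), Gm36723, Spp1, Slc16a11 and Ociad2 for Ikzf4, and Usp15 (0.86), Otud4, Brpf1, Dmxl1 and Spopl for Ikzf5. Without TIGIT+ Teff these were led by Abcb9 (0.90) and Cenpx (0.74), with Ociad2 the 1 gene kept for Ikzf4 and Usp15 and Otud4 kept for Ikzf5. Among the members, Ikzf1 and Ikzf3 were closest (0.83), then Ikzf3 and Crbn (0.76) and Ikzf2 and Ikzf3 (0.71), while Ikzf1 and Ikzf2 had 0.49.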

How the data were processed

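CD8+ T cells from mouse BM were profiled by 10x 5′ single-cell RNA and TCR sequencing in 4 libraries. Per the submitters' processing notes, reads were aligned to mm10 with Cell Ranger 7.00. The authors aggregated libraries with depth downsampling, filtered cells on UMIs, the mitochondrial share, Cd8a and Cd3e or Cd3g (not every deposited cell holds a Cd8a UMI), and clustered them with Monocle3. Whether introns were counted is not given in the sources used here. The deposited counts are UMI counts per gene and cell, with no further scaling. The deposited cell annotation also holds the fraction of mitochondrial UMIs per cell, made by the authors and not used further here.

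UMIs were summed by cluster and library (Python 3.11.15, numpy 2.4.6, scipy 1.17.1, pandas 2.3.3) and given as CPM with exact Poisson intervals, log2 ratios with exact conditional binomial intervals and shares with Clopper-Pearson intervals, all at 95% and for counting error only. Thinning drew 2500 UMIs from each cell, and no cell was shallower. Genes needed 20 CPM in either side of a comparison (50 CPM in the split by Ikzf2), and the limit for a count of 0 was 3 counts. With 1 library per treatment, no test was made. Scripts were tested on simulated data. Doublets were not called, and cells with 2 or more TRB chains (722) or with 3 or more UMIs of other cell types (2742) were left out as alternatives.

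The members and lists were chosen with earlier results of these data known. Genes named were the 6 members, the 3 genes of each pathway list with the most UMIs, those past the fold in each library, and the 5 most like each member. The text gives a selection of these, and 1 gene of the lists is not reported here. The split of Tcm by Ikzf2, the clone quotient, the library order, the count of all genes in the Ly49 split and the product of single shares were added after the data were seen, with the genes named in them.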

Additional observations from a re-analysis of the deposited data

How the results depend on the processing

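Treatments could not be compared, paired or not, because each group is 1 library. Comparisons of clusters were also read within each library, and no test was made. Of the 204 alternatives to the 18 log2 ratios of the 6 genes in 3 comparisons of clusters, 158 stayed inside the counting interval and 46 did not. The cause was not tested. Direction was kept in all but 5 of them, all of the sparse Ikzf5. Depth limits Ikzf4 and Ikzf5 most, and the shares of cells at any depth.

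From Tn to the 5 Teff and Tex clusters, thinning gave 0.66 for Ikzf1, 1.91 for Ikzf2, 1.37 for Ikzf3, 1.34 for Ikzf4, 0.60 for Ikzf5 and 0.97 for Crbn. The mean over cells gave 0.66, 1.96 and 1.36 for Ikzf1, Ikzf2 and Ikzf3. Equal weight of libraries gave 0.62 for Ikzf1. Cluster numbers in place of names gave 1.67 for Ikzf2 and 1.19 for Ikzf3, and leaving out cells of mixed content 2.43 for Ikzf2. Median-of-ratios size factors gave 0.23, 1.83, 0.99, -0.12 and 0.51 for Ikzf1, Ikzf2, Ikzf3, Ikzf5 and Crbn, each lower by nearly the median of all genes (0.30). Ikzf3 was then just under the fold. Without TIGIT+ Teff the values were 0.28, 1.91 and 1.12 for Ikzf1, Ikzf2 and Ikzf3. Leaving out 1 library gave 0.44 to 0.61 for Ikzf1, 1.93 to 2.45 for Ikzf2 and 1.17 to 1.38 for Ikzf3.

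From Tn to Tcm, thinning gave 2.49 for Ikzf2, -2.20 for Ikzf4 and 0.24 for Ikzf5, cluster numbers 2.31 and leaving out mixed cells 3.10 for Ikzf2, and size factors -0.24 for Ikzf1 and 0.45 for Ikzf3. Leaving out 1 library gave 2.64 to 2.96 for Ikzf2 and 0.52 to 0.70 for Ikzf3. In cycling cells, thinning gave 0.37 for Ikzf1, -0.000707 for Ikzf2 and -1.23 for Ikzf4, the mean over cells 0.34, -0.014 and -0.18 for Ikzf1, Ikzf2 and Ikzf3, equal weight 0.13 for Ikzf1, and size factors 0.14 for Ikzf1 and -0.29 for Ikzf3. Leaving out 1 library gave 0.13 to 0.22 for Ikzf1. Among the single clusters, Ikzf1 in transitory Teff against Tn turned to -0.021 with size factors.

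Without a minimum level, 12.8% of 16600 genes were higher and 2.0% lower in Teff and Tex clusters than in Tn, and 4.99% and 2.20% of 15380 in Tcm. Ikzf3 and Ikzf1 kept library 4 lowest in 7 and 8 clusters without mixed cells.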
